A study of Mus musculus with 10 samples.

Results

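The genes described here carry antibody across mucosal surfaces or mark the cells that make it. The 9 genes, of 47333 identifiers in the deposited table, are the polymeric immunoglobulin receptor gene Pigr, the joining chain gene Jchain, the immunoglobulin constant genes Igha, Ighm and Igkc, the plasma cell genes Mzb1, Tnfrsf17 and Derl3, and the neonatal Fc receptor gene Fcgrt. They were named by symbol and found by Ensembl identifier in GENCODE M21, and all 9 had 1 matching row. The choice was made knowing that Pigr was higher in mice without Bpifb1, so the values of the 9 genes between genotypes are a description and support no claim. The study asked how loss of Bpifb1, a secreted protein of the airway lining, alters RNA levels in the lung. All 10 mice were C57BL/6J, untreated and 12 weeks old, with the right middle lobe of the lung taken from each. There were 5 KO mice (1 male, 4 females), which lack Bpifb1, and 5 wild-type (WT) mice (2 males, 3 females), and cages held both genotypes. The labels name no construct for the KO allele, no clone and no sequencing batch.

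Antibody reaches the airway surface by a relay between cell types. Plasma cells beneath the epithelium secrete IgA and IgM as polymers that are held together by the joining chain. The polymeric immunoglobulin receptor on the basal side of an epithelial cell binds the joined polymer and carries it to the lumen, where the receptor is cleaved and its outer part is released with the antibody as secretory component. Fcgrt encodes a different receptor, which binds IgG and albumin, recycles them and moves IgG across cells. Plasma cells transcribe all the antibody genes named here, while Ighm and Igkc are transcribed by B cells as well.

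Library totals over genes ran from 21357424 to 28321294 estimated counts. Values are given as counts per 1000000 (CPM), scaled between libraries by the trimmed mean of M values, and 3 counts, taken as the smallest readable signal, equalled 0.104 to 0.143 CPM. Bpifb1 itself lay at 0.217 to 1.26 CPM in KO mice and at 28.1 to 79.6 CPM in WT mice. Xist, the RNA that silences an X chromosome, lay at 1.78 CPM in KO replicate 5 although the mouse is labelled female. It lay at 274 to 407 CPM in the other females and at 1.29 to 1.73 CPM in males. The sex results for Mzb1, Ighm, Igkc and Jchain are therefore also given without that mouse. Its label also entered the sex covariate of the genotype fits, and no fit was made with the mouse coded as male. Between genotypes the log2 fold change of Pigr was 0.52, with no sex covariate 0.53 and without that mouse 0.51. That of Mzb1 was -0.21, with no sex covariate -0.11 and without that mouse -0.19.

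RefSeq promoter windows were examined for 5 of the 9 genes (Pigr, Jchain, Fcgrt, Derl3 and Tnfrsf17). The remaining genes were not examined, and no lack of a window or of a motif is claimed for them. The region around the transcription start of Pigr is shown with that of Derl3 because the pair share 1 regulatory motif while their values between genotypes lay on opposite sides of 0. The log2 fold change of Derl3 was -0.27 (SE 0.19, edgeR adjusted p 0.488), so its side of 0 is not established. Nothing is read from the contrast of the pair. Both are RefSeq windows of GRCm38.p6, from 250 bases before to 50 bases after the start of the gene, written 5′ to 3′ on the strand of the gene. The Pigr window is chr1:130826434-130826733 (plus strand) and the Derl3 window is chr10:75893148-75893447 (plus strand). Capitals mark matches to any of 5 motifs searched on both strands.
Pigr: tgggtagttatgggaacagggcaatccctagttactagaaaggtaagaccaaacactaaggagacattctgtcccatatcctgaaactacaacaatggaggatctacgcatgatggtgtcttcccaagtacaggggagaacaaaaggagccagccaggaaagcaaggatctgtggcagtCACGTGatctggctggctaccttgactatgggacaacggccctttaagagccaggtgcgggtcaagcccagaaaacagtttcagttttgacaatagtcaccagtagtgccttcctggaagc
Derl3: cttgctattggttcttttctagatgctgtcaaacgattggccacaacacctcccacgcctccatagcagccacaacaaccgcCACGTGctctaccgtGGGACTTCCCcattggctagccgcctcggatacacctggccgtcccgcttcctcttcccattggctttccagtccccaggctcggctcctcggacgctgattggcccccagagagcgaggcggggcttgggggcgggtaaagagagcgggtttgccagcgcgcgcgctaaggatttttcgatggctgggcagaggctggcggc
The motifs were the E-box CACGTG, the interferon response element (GAAA and GAAA again after any 2 bases), the AP-1 motif TGANTCA, the octamer ATTTGCAT and the NF-kB motif. The Pigr window held 1 match, an E-box that begins 71 bases before the start. E-boxes of these letters were in 7.15% of 32851 promoter windows of the same length. The Derl3 window held an E-box 168 bases and an NF-kB match 153 bases before the start, and NF-kB matches were in 8.46% of all windows. In the Tnfrsf17 window the interferon response element, found in 3.44% of all windows, matched once. The windows of Jchain and Fcgrt held none of the 5, and the matches did not overlap one another. A match is a description of letters and shows no binding.

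Levels were compared between genes per kilobase of exon, as CPM per kb averaged over the 10 mice. Igkc, the kappa light chain constant gene, was highest at 289 CPM per kb (range over mice 201 to 457). Ighm, the constant gene of IgM, followed at 138 (107 to 195) and did not overlap Igkc in any mouse. Fcgrt at 44.2 (40.6 to 49.6) and Igha, the constant gene of IgA, at 33.7 (15.1 to 71.5) overlapped, and so did Igha and Pigr at 16.3 (11.8 to 21.4). Pigr overlapped Jchain at 8.34 (3.01 to 16.5), and Jchain overlapped Mzb1 at 3.95 CPM per kb (2.62 to 4.92). Derl3 at 0.793 (0.553 to 1.08) and Tnfrsf17 at 0.226 CPM per kb (0.114 to 0.334) lay apart from each other and below all the rest. Pigr and Fcgrt varied little between mice, and Jchain and Igha varied widely. The coefficient of variation among WT mice was 7.15% for Fcgrt and 8.71% for Pigr, against 47.6% for Jchain and 54.2% for Igha. The highest mouse had 1.22 times the lowest in Fcgrt, 1.81 times in Pigr and 5.49 times in Jchain.

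Pigr (ENSMUSG00000026417; GRCm38 chromosome 1, 130826684 to 130852249, plus strand) measured 81.5, 86.1, 64.4, 74 and 81.3 CPM in KO replicates 1 to 5. In WT replicates 1 to 5 it measured 53.2, 52.8, 47.5, 53.9 and 60.6 CPM. The ranges did not overlap: the lowest KO mouse, replicate 3, lay above the highest WT mouse, replicate 5. The KO mean of 77.5 ± 8.49 CPM was 1.45 times the WT mean of 53.6 ± 4.67 CPM (SD, n = 5 each). The fitted log2 fold change was 0.52 (SE 0.08), with sex as a covariate, and ran from 0.45 to 0.58 over 18 alternative settings. The filter on low counts kept 8 of the 9 genes. Between genotypes the quasi-likelihood test of edgeR called 0 of these 8 at an adjusted p under 0.05, and it called 0.0222% of 18024 tested genes (0.00555% higher and 0.0166% lower in KO). At an unadjusted p under 0.05 stood 3 of the 8, with Pigr higher and Ighm and Fcgrt lower in KO, beside 17% of all tested genes (8.92% higher, 8.04% lower). The DESeq2 Wald test called 1 of the 8, Pigr, beside 1.92% of all genes (1.4% higher in KO), and limma-voom called 0. Ranges of CPM that did not overlap were found in 1 of the 8, Pigr, and in 1.88% of all tested genes (0.96% higher, 0.921% lower in KO). As Pigr was picked on this contrast, nothing is read from these counts.

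**Figure D1:**
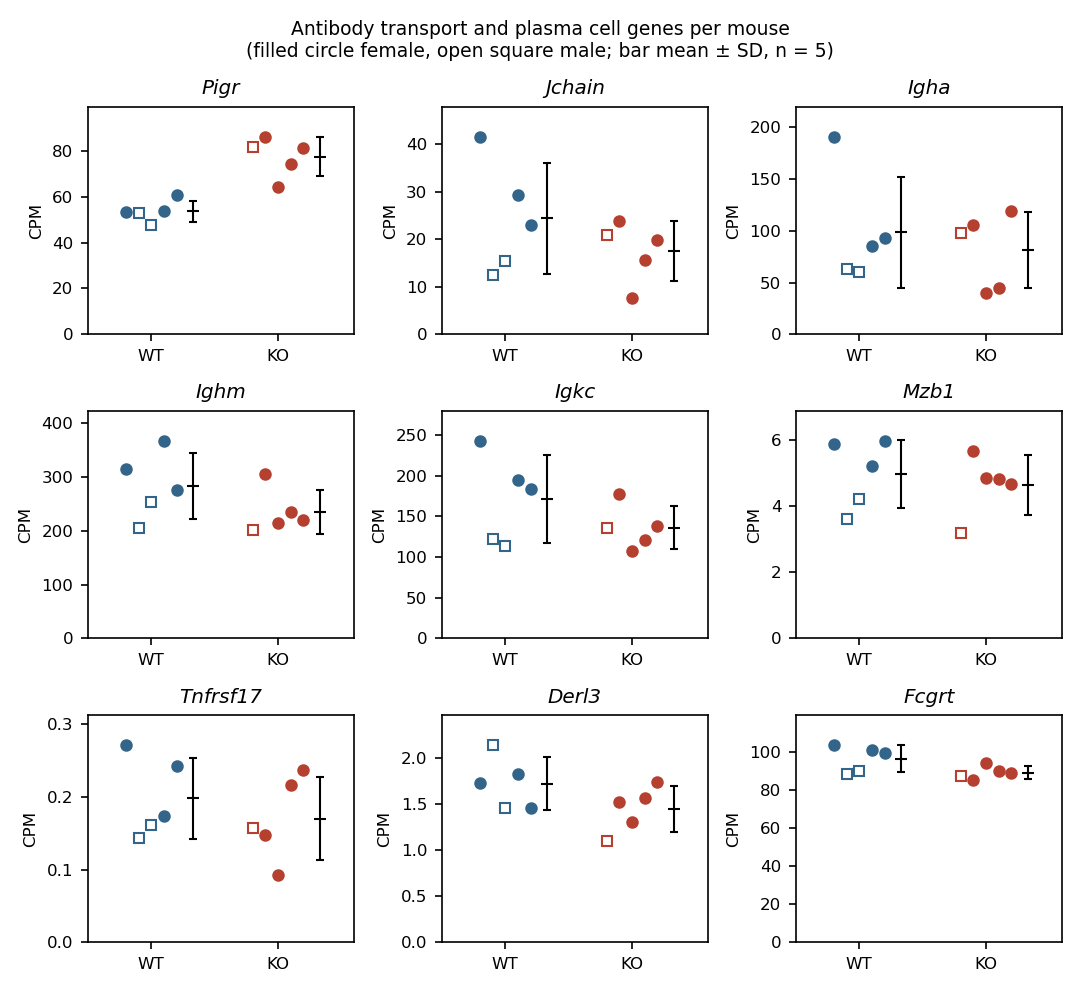
CPM of the 9 genes in each mouse by genotype, with filled circles for females, open squares for males and a bar for the mean ± SD (n = 5). In the Pigr panel all 5 KO mice, from 64.4 to 86.1 CPM, lie above all 5 WT mice, from 47.5 to 60.6 CPM, while the groups overlap in the other 8 panels.

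Because Pigr belongs to epithelium, it was set beside markers of lung epithelial cells. The 9 pan-epithelial markers, among them Epcam and Cdh1, summed to 1000 to 1110 CPM in KO and 1040 to 1190 CPM in WT mice, and each of them had counts. Of the 9, 8 had fold changes below 0 and 1, Cdh1 (0.14), above 0, with a median of -0.05. At an unadjusted p under 0.05 by edgeR stood 1 higher and 2 lower, beside 8.92% and 8.04% of all tested genes. EdgeR, DESeq2 and limma-voom called 0. Pigr divided by the pan-epithelial sum gave log2 ratios of -4.03 to -3.54 in KO and -4.49 to -4.20 in WT mice. Divided by the sum of 8 club cell markers the log2 ratios were -8.88 to -8.44 in KO and -9.55 to -9.11 in WT mice. Divided by the sum of 8 alveolar type 2 markers they were -8.85 to -8.35 and -9.35 to -9.06. Divided by the sum of 8 ciliated cell markers they were -2.29 to -1.87 and -2.59 to -2.39. These ratios reuse the Pigr values that chose the set and are a description, from which nothing is read. The 10 markers of submucosal gland and goblet cells, which include Bpifa1 and Muc5b, summed to 181 to 470 CPM in KO and to 185 to 481 CPM in WT.

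The sums of the ciliated, alveolar type 2 and club cell markers overlapped between the genotypes, and the part of these cells in the Pigr difference was not tested. The 8 ciliated cell markers summed to 308 to 392 CPM in KO and 284 to 318 CPM in WT mice. EdgeR and limma-voom called 0 of these 8, and DESeq2 called 1, Foxj1, beside 1.92% of all genes. At an unadjusted p under 0.05 by edgeR stood 3 of the 8, all higher in KO, beside 8.92% of all tested genes higher, and the median log2 fold change was 0.18 (all tested genes -0.003). Without KO replicate 1 the 3 became 0 and the median 0.10. The 8 alveolar type 2 markers summed to 28200 to 32000 CPM in KO against 29200 to 34800 CPM in WT. Of these, edgeR called 0 and DESeq2 1, Sftpa1, beside 1.92% of all genes. At an unadjusted p under 0.05 by edgeR stood 5, all lower in KO, beside 8.04% of all tested genes lower, with a median of -0.16. Over the fits that each left out 1 mouse these 5 were 2 to 5, with 2 without KO replicate 2 or WT replicate 4 and 3 without KO replicate 1 or 3 or WT replicate 1. The 8 club cell markers summed to 29900 to 33700 CPM in KO against 31100 to 39700 CPM in WT. Of the 7 tested, 6 had fold changes below 0, beside 50.7% of all tested genes, with a median of -0.13. EdgeR called 0 of the 7, and DESeq2 called 1, Aldh1a1, beside 1.92% of all genes. At an unadjusted p under 0.05 by edgeR stood 2 (Cbr2 and Aldh1a1), both lower in KO, beside 8.04% of all tested genes lower. In bulk tissue, fewer cells of a type and less RNA per cell cannot be told apart.

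Jchain (ENSMUSG00000067149; chromosome 5, 88519809 to 88527891, minus strand), whose product joins IgA and IgM into the polymers that the receptor binds, measured 21, 23.9, 7.58, 15.7 and 19.9 CPM in KO replicates 1 to 5. In WT replicates 1 to 5 it measured 41.6, 12.6, 15.4, 29.3 and 23.1 CPM. WT replicate 1 was the highest and KO replicate 3 the lowest of all mice, and the groups overlapped. Jchain averaged 17.6 ± 6.32 CPM in KO mice against 24.4 ± 11.6 CPM in WT (SD, n = 5 each). The fitted log2 fold change was -0.48 (SE 0.38). It was -0.89 without KO replicate 1, -0.28 without KO replicate 3 and -0.24 without WT replicate 1.

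Igha (ENSMUSG00000095079; chromosome 12, 113254830 to 113260236, minus strand) measured 97.9, 106, 40.3, 44.5 and 119 CPM in KO replicates 1 to 5 and 191, 63.1, 60.5, 85.2 and 92.9 CPM in WT replicates 1 to 5. KO replicates 3 and 4 were the lowest and the other 3 KO mice lay above most WT mice, whereas WT replicate 1 stood alone at the top. The log2 fold change was -0.28 (SE 0.45), and its direction rested on that mouse, since without WT replicate 1 it was 0.09. It was -0.66 without KO replicate 1, -0.42 without KO replicate 5, -0.10 without KO replicate 3 and -0.11 without KO replicate 4. Ighm (ENSMUSG00000076617; chromosome 12, 113418558 to 113422730, minus strand), a heavy chain that B cells also carry on their surface, measured 202, 306, 215, 235 and 220 CPM in KO replicates 1 to 5 and 315, 205, 253, 368 and 277 CPM in WT replicates 1 to 5. The groups overlapped, with WT replicate 4 highest, and the log2 fold change was -0.33 (SE 0.12). Igkc (ENSMUSG00000076609; chromosome 6, 70726435 to 70726966, plus strand), the light chain shared by most mouse antibodies, measured 136, 178, 107, 121 and 138 CPM in KO and 243, 122, 114, 195 and 183 CPM in WT replicates 1 to 5. WT replicate 1 was again the highest of the 10 and KO replicate 3 the lowest, with overlap between the groups and a log2 fold change of -0.37 (SE 0.19), which was -0.60 without KO replicate 1 and -0.25 without WT replicate 1. Igkc overlaps the noncoding gene Gm30211 on the same strand, which measured 1.14 CPM on average.

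Among the plasma cell genes, Mzb1 (ENSMUSG00000024353; chromosome 18, 35647267 to 35649367, minus strand), which encodes a chaperone of antibody assembly in B and plasma cells, measured 3.19, 5.65, 4.83, 4.82 and 4.66 CPM in KO replicates 1 to 5. In WT replicates 1 to 5 it measured 5.86, 3.62, 4.22, 5.21 and 5.97 CPM, overlapping the KO mice, with a log2 fold change of -0.21 (SE 0.10). Derl3 (ENSMUSG00000009092; chromosome 10, 75893413 to 75895941, plus strand), which acts in the removal of misfolded proteins from the endoplasmic reticulum, measured 1.10 to 1.74 CPM in KO and 1.45 to 2.14 CPM in WT mice, with a log2 fold change of -0.27 (SE 0.19) from 28 to 45 counts per mouse. Without KO replicate 1 this was -0.12 and without WT replicate 2 it was -0.18. Tnfrsf17 (ENSMUSG00000022496; chromosome 16, 11313812 to 11320074, plus strand), which encodes the plasma cell survival receptor BCMA, had 2 to 7 counts per mouse, near or under the floor of 3, and did not pass the filter on low counts. It averaged 0.17 ± 0.0576 CPM in KO mice against 0.198 ± 0.0558 CPM in WT (SD, n = 5 each), a difference not detectable at this depth. Fcgrt (ENSMUSG00000003420; chromosome 7, 45092990 to 45103851, minus strand), the other antibody transporter, measured 87.4, 85.4, 94.2, 90.3 and 89.2 CPM in KO replicates 1 to 5 and 104, 88.4, 90.3, 101 and 99.7 CPM in WT replicates 1 to 5. The genotypes overlapped within a narrow span, and the log2 fold change was -0.14 (SE 0.05). Thus 7 of the 8 tested genes had a fold change below 0 and Pigr alone one above 0, where 50.7% of all tested genes lay below 0.

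**Figure D2:**
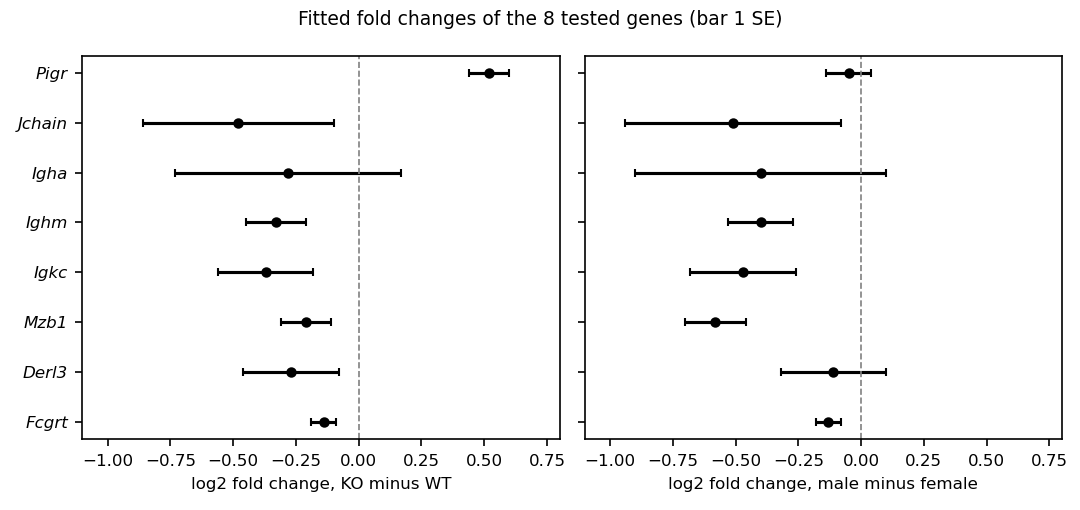
Fitted log2 fold changes of the 8 tested genes, KO minus WT on the left and male minus female on the right, with bars of 1 SE. Between genotypes Pigr lies at 0.52 and the other 7 genes between -0.48 and -0.14, and between sexes Mzb1 lies farthest from 0 at -0.58.

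Pigr was then divided by each antibody gene within each mouse, as a log2 ratio of CPM. Pigr over Igkc was -0.74, -1.05, -0.73, -0.71 and -0.76 in KO replicates 1 to 5. In WT replicates 1 to 5 it was -2.19, -1.20, -1.27, -1.85 and -1.59, below every KO mouse. Pigr over Ighm ran from -1.83 to -1.31 in KO and from -2.77 to -1.96 in WT mice and did not overlap either. Pigr over Jchain (1.85 to 3.09 in KO, 0.36 to 2.07 in WT) and over Igha (-0.55 to 0.73 in KO, -1.84 to -0.26 in WT) overlapped. The ratios share the values of Pigr that chose the set and are given as a description.

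Among the KO mice, the order by Pigr from lowest to highest was replicates 3, 4, 5, 1 and 2, and the order by Jchain was the same. The total counts of these 5 libraries (21357424, 23361859, 24949498, 25203406 and 26993413) also stood in that order, and the part of depth was not tested. Among the WT mice the orders differed: replicate 3 was lowest in Pigr and replicate 2 in Jchain. As Pigr separated the genotypes and each held 5 mice, fewer than the 6 needed, no correlation of Pigr with an antibody gene is given.

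**Figure D3:**
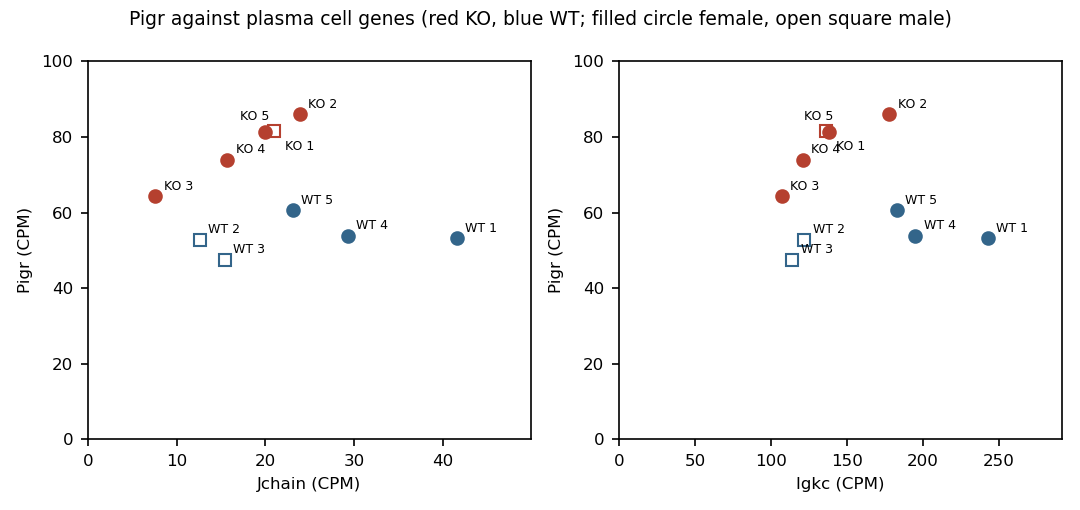
Pigr against Jchain and against Igkc in CPM, with 1 point per mouse labelled by genotype and replicate (red KO, blue WT; filled circles females, open squares males). The 5 KO points climb from replicate 3 (7.58 CPM of Jchain, 64.4 CPM of Pigr) to replicate 2 (23.9 and 86.1 CPM), while the WT points stay between 47.5 and 60.6 CPM of Pigr as Jchain runs from 12.6 to 41.6 CPM.

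How the antibody and plasma cell genes varied together between mice was tested over the 21 pairs of 7 genes, without regard to genotype. All 21 Pearson coefficients of log2 CPM over the 10 mice were above 0, and 4 pairs passed an adjusted p under 0.05 by permutation test (100000 resamples, two-sided). The shared sign was not stable. Without the 2 mice farthest from the median of the first gene of a pair, 8 of the 21 had r of at least 0.5. Without KO replicate 3 and WT replicate 1, r of Derl3 was -0.26 with Jchain and -0.20 with Igha. That of Jchain and Tnfrsf17, which had 2 to 7 counts per mouse, went from 0.73 to 0.18. Jchain and Igkc had r = 0.91 (permutation adjusted p 0.00357) and rho = 0.94 (permutation adjusted p 0.00357). Without the 2 mice farthest from the median of Jchain, KO replicate 3 and WT replicate 1, r was 0.90. The pair also passed after centring on the genotype means (r = 0.90, permutation adjusted p 0.00945) and without each mouse in turn (r from 0.87 to 0.95). This was the highest r of the 21 pairs, and it joins a gene of plasma cells with a light chain gene that B cells also transcribe.

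Jchain and Igha had r = 0.87 (permutation adjusted p 0.0167) and rho = 0.75 (permutation adjusted p 0.0731). Igha and Igkc had r = 0.82 (permutation adjusted p 0.0248) and rho = 0.78 (permutation adjusted p 0.0731). Both pairs rested in part on KO replicate 3 and WT replicate 1: without this pair of mice r was 0.66 and 0.59, and without either mouse alone the adjusted threshold was missed, as it was for Igha and Igkc without WT replicate 2. Ighm and Igkc had r = 0.81 (permutation adjusted p 0.0298), rho = 0.68 (permutation adjusted p 0.121) and r = 0.70 without WT replicates 1 and 4, and they passed in 5 of the 10 fits without 1 mouse. After centring on the genotype means Ighm and Igkc missed the threshold (r = 0.77, permutation adjusted p 0.052), and 3 of the 21 pairs passed. Derl3 had r of 0.15 to 0.27 with the other 6 genes over the 10 mice and passed with none. Over the 7 labelled females r of Derl3 was 0.76 with Jchain, 0.61 with Igha, 0.61 with Tnfrsf17, 0.56 with Igkc, 0.53 with Ighm and 0.00 with Mzb1. These values are a description with no test, and the 7 include KO replicate 5, with Xist at the level of the males. Igha and Ighm had r = 0.44 (permutation adjusted p 0.382), so no relation of the IgA and IgM heavy chains was detectable over these mice.

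**Figure D4:**
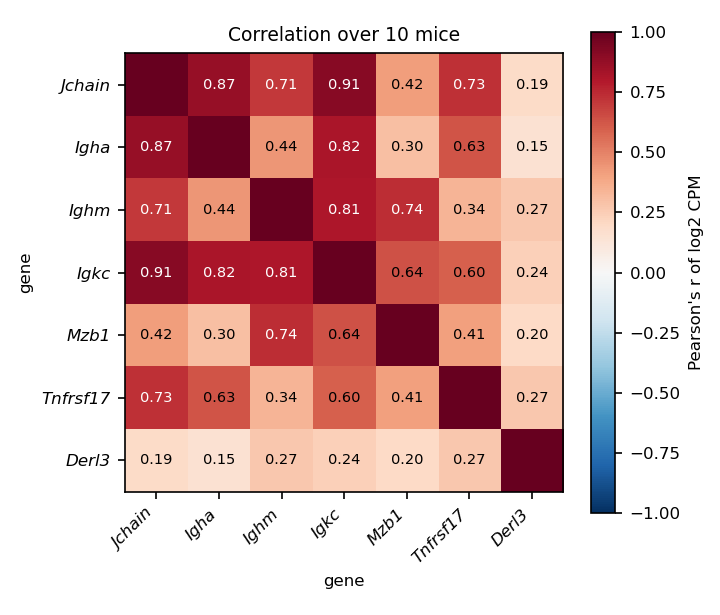
Pearson's r of log2 CPM over 10 mice for each pair of the 7 antibody and plasma cell genes, from blue (-1) to red (1). Jchain, Igha and Igkc form the darkest block with r from 0.82 to 0.91, and the Derl3 row is pale with r from 0.15 to 0.27 over mice of both sexes.

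The heavy chain constant genes were also expressed as shares of their summed counts in each mouse. Igha took 29.1%, 22.6%, 13.6%, 14.4% and 30.6% in KO replicates 1 to 5 and 34.2%, 21%, 16.8%, 17.1% and 21.6% in WT replicates 1 to 5. The exact Clopper-Pearson 95% intervals were 12.8% to 14.5% for the lowest mouse and 33.4% to 35.1% for the highest, and they cover counting error only. The mean share of Igha was 22.1% in both genotypes, with an SD of 7.95 in KO and 7.09 in WT mice (n = 5 each). Ighm took 56.6% to 76% in KO and 56.6% to 73.9% in WT mice. Ighd, the IgD chain of naive B cells, took 6.99% to 13.3% over all mice. The IgG chains were minor: Ighg2b, the most abundant of them on average, took 0.189% to 1.24%. Of the light chain constant counts, Igkc took 67.1% to 85.1% and the lambda genes Iglc1, Iglc2 and Iglc3 took the rest. WT replicate 3 had the lowest kappa share, and the others lay at 76.3% or above.

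**Figure D5:**
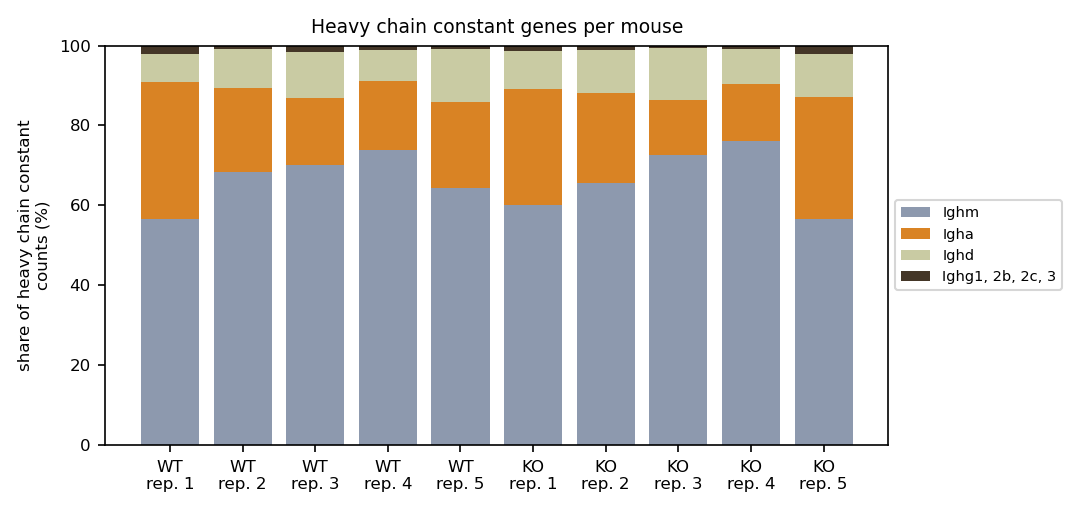
Share of the summed counts of 8 heavy chain constant genes in each mouse, as stacked bars in percent with the 4 IgG genes drawn together (Ighe, at or under 0.0159%, is not drawn). Igha ranges from 13.6% in KO replicate 3 to 34.2% in WT replicate 1, and both genotypes contain mice with low and with high Igha shares.

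Sex played no part in choosing the set, so it could be tested. Mzb1 was lower in males: it measured 3.19, 3.62 and 4.22 CPM in the 3 males, while the 7 females lay at 4.66 to 5.97 CPM, with no overlap, as in 4.81% of all tested genes (2.55% lower in males). The lowest of the females was KO replicate 5, the mouse with Xist at the level of the males. The log2 fold change was -0.58 (SE 0.12), and Mzb1 was the 1 of 8 tested genes that passed (edgeR adjusted p 0.0415), where 0.583% of all tested genes passed (0.133% lower in males). The call was kept in 6 of 17 alternatives, over which the adjusted p ran from 0.0127 to 0.232. It was missed by limma-voom (adjusted p 0.0558), without a term for genotype (edgeR adjusted p 0.133), without KO replicate 5 (edgeR adjusted p 0.0552) and in 8 other fits that left out 1 mouse, up to the highest value without KO replicate 1. The fold change itself ran from -0.65 to -0.53. The DESeq2 Wald test also called 1 of the 8, and limma-voom called 0.

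The other genes lay in the same direction without passing, with KO replicate 5 kept among the females by its label. The log2 fold changes, male minus female, were -0.40 for Ighm (SE 0.13, edgeR adjusted p 0.186), -0.47 for Igkc (SE 0.21, edgeR adjusted p 0.35) and -0.51 for Jchain (SE 0.43, edgeR adjusted p 0.639). Without KO replicate 5 they were -0.42 for Ighm, -0.48 for Igkc and -0.50 for Jchain. All 8 genes had fold changes below 0, as had 51.7% of all tested genes, and 3 of the 8 had an unadjusted p under 0.05, all lower in males, where 15.1% of all tested genes had (7.79% lower in males). Pigr at -0.05 (SE 0.09, edgeR adjusted p 0.827) lay closest to 0. Derl3 and Pigr each kept the sign in 16 of 17 alternatives. Derl3 was 0.10 without KO replicate 1, and Pigr was 0.01 without WT replicate 3. Some of these genes varied together between mice, so the 8 directions are not independent. The part of B and T cells in the Mzb1 difference was not tested. All 12 B cell genes had fold changes below 0 in males (median -0.21), and their sums were 251 to 289 CPM over males, within the 207 to 411 CPM of females. All 8 T cell markers did as well (median -0.31), and their sums were 56.2 to 64.8 CPM over males overlapping the 63.3 to 90.3 CPM of females. By edgeR, 0 of the 12 and 0 of the 8 passed between the sexes.

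The wider pathway was examined between genotypes through 7 lists, which include genes of the set. Of their 117 tested genes edgeR called 0 and limma-voom 0, DESeq2 called 2 (Usf1 and Egfr), beside 1.92% of all genes, and 21 had an unadjusted p under 0.05 by edgeR, beside 17% of all tested genes (8.92% higher, 8.04% lower). A count of 21 in 117 is near that background, and the counts for each list are given as values. All 11 tested immunoglobulin constant genes had fold changes below 0 in KO, beside 50.7% of all tested genes. Their median was -0.33 (all tested genes -0.003), and 2 had an unadjusted p under 0.05. These were Ighm and the lambda gene Iglc3, which averaged 8.47 ± 1.93 CPM in KO mice against 12 ± 2.97 CPM in WT (SD, n = 5 each), a difference of -0.44 on the log2 scale (SE 0.18). Without WT replicate 1, the mouse with the most Igha and Jchain, 8 of the 11 were below 0 and the median was -0.25. The median was -0.21 without KO replicate 4 and -0.47 without KO replicate 1, with all 11 below 0 in both. The constant genes share cells and are not independent of one another.

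Of 19 tested plasma cell genes, 7 had fold changes above 0 and 12 below, with a median of -0.10. Cd38, a surface enzyme of plasma and other cells, had a log2 fold change of 0.18 (SE 0.07) and Fkbp11, a secretory pathway chaperone, one of -0.32 (SE 0.14). These were the only genes of the list at an unadjusted p under 0.05 by edgeR, beside 17% of all tested genes (8.92% higher, 8.04% lower). Xbp1, the transcription factor of the secretory program, averaged 224 ± 28.7 CPM in KO mice against 245 ± 29.1 CPM in WT (SD, n = 5 each). Many genes of this list are also expressed outside plasma cells. Of 12 B cell genes, 5 were above 0 and 7 below with a median of -0.02, and their sums were 207 to 411 CPM in KO and 253 to 360 CPM in WT mice. Ebf1, a B lineage factor that stromal cells express as well, had a log2 fold change of 0.25 (SE 0.11), Fcer2a one of -0.32 (SE 0.23) and Cr2 one of 0.16 (SE 0.17). Of the 12, only Ebf1 had an unadjusted p under 0.05 by edgeR, where 8.92% of all tested genes were higher at that p.

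Of the genes for survival and homing of antibody-secreting cells, 12 of 17 were tested, with 6 above 0, 6 below and a median of 0.01, and 1, higher in KO, had an unadjusted p under 0.05, where 8.92% of all tested genes were higher at that p. The chemokine receptor gene Cxcr4 had a log2 fold change of 0.16 (SE 0.07), Ccr6 one of -0.29 (SE 0.21) and Ccl28, a mucosal chemokine for IgA plasma cells, one of -0.31 (SE 0.3). Of 25 tested regulators that are known to act on Pigr or on related inflammatory signalling, 16 were above 0 and 9 below with a median of 0.03, and 4 higher and 1 lower had an unadjusted p under 0.05, beside 8.92% and 8.04% of all tested genes. Usf1, which encodes a factor that binds E-boxes, measured 57.0 to 60.7 CPM in KO and 60.9 to 69.1 CPM in WT mice. The ranges did not overlap, as in 0.921% of all tested genes in this direction. The difference was -0.18 on the log2 scale (SE 0.05, edgeR adjusted p 0.144). DESeq2 called Usf1, beside 1.92% of all genes, and nothing is read from it about Pigr. The cytokine gene Il1b had a log2 fold change of 0.37 (SE 0.13) and the receptor gene Tnfrsf1b one of 0.12 (SE 0.05).

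Of 26 tested genes of the epithelial transcytosis machinery, 11 were above 0 and 15 below, with a median of -0.02. At an unadjusted p under 0.05 stood 4 higher genes and 4 lower, beside 8.92% and 8.04% of all tested genes. Egfr had a log2 fold change of 0.29 (SE 0.08), the clathrin adaptor gene Ap1g1 one of 0.16 (SE 0.05) and the kinase gene Yes1 one of 0.23 (SE 0.08). Of 12 tested Fc receptor genes, 4 were above 0 and 8 below, with a median of -0.03, and 2 lower ones, Fcgrt and Fcgr4, had an unadjusted p under 0.05, where 8.04% of all tested genes were lower at that p. B2m, the light chain partner of the Fcgrt product, averaged 854 ± 37.1 CPM in KO mice against 867 ± 71.8 CPM in WT (SD, n = 5 each). Fcgr4, an IgG receptor, had a log2 fold change of -0.21 (SE 0.10), and Fcamr, a receptor for IgA and IgM, one of 0.28 (SE 0.20).

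Genes with the most similar profile were ranked by Pearson's r of log2 CPM over the 10 mice among 16281 tested genes with a mean of at least 1 CPM. For Pigr they included Sp4 (r = 0.938), Dnah11 (0.932), Zfp974 (0.913) and Entpd4 (0.893). The ranking pooled the genotypes, which Pigr separates, so for Pigr it favours genes that differ between genotypes in the same direction. Each of these 4 had a fold change above 0 between genotypes, as Pigr had, and nothing is read from that. After centring on the genotype means r was 0.53 to 0.882. For Jchain they were Igkc (r = 0.913), Fam189b (0.904), Polr3g (0.897), the processed pseudogene Gm10052 (0.896) and Chn1 (0.888). The points share their libraries and depth, and the coefficients are a description.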

How the data were processed

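RNA of 10 mouse lungs was measured by stranded mRNA sequencing with 50-base single reads, per the labels' protocols. The authors deposited estimated counts per Ensembl gene, not scaled between samples. The submitters' processing notes name STAR 2.6.0 and Salmon 0.9.1 without roles, with builds mm10 and GRCm38, and the annotation and strand setting are not given in the sources used here. Of the non-zero values 30.1% lay over 0.01 from a whole number, and estimated counts can split reads between similar genes such as the immunoglobulin constant genes. GENCODE M21 gave the symbol, position and exon length of 47281 identifiers.

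Counts were rounded and tested with edgeR 4.0.16 (R 4.3.3; quasi-likelihood, robust, sex and genotype as terms, Benjamini-Hochberg adjustment) after filterByExpr by genotype (minimum count 10, minimum total 15), keeping 18024 genes. The threshold was an adjusted p of 0.05. Standard errors are the absolute log2 fold change over the square root of F. Correlations used log2 CPM with a prior count of 2. Alternatives included DESeq2 1.42.0, limma 3.58.1, other filters and scalings, correlations centred on genotype, and leaving out each mouse. Scripts were tested on simulated data.

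The genes and lists were chosen with earlier results of these data known. Named beside the set were Bpifb1, the genes of each list past the threshold or up to 3 with the smallest p, and the 5 most similar to Pigr and to Jchain, of which 1 is not reported here. Others were chosen after their values were seen (Ccl20, Fcer1a, Xbp1, B2m, Xist, Ighd, Ighg2b, Foxj1, Sftpa1, Cbr2, Aldh1a1, Cdh1, Bpifa1). The p-values of the edgeR fits rest on the spread between these mice, moderated over all genes, and those of the correlations on permutation of the mice. The floor of 3 counts was a fixed choice that takes account of counting error only, and the reads carry no molecular identifiers.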

Additional observations from a re-analysis of the deposited data

Results flagged for a closer look

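Igha in WT replicate 1 stood apart from the other WT mice, at 191 CPM against 60.5 to 92.9 CPM, by Dixon's test. The test was applied to 18 sets of values, the 9 genes in each genotype, and 1 set stood out. Chance alone gives about 0.9 of 18. The same mouse was the highest of all 10 in Jchain (41.6 CPM), Igkc (243 CPM) and Tnfrsf17 (0.272 CPM). Its total count was the lowest of the WT libraries, and its B cell genes summed to 263.6 CPM, within the 252.9 to 359.9 CPM of the other WT mice.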

How the results depend on the processing

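The fold change of Pigr between genotypes kept its sign in all 18 alternatives (0.45 to 0.58), and an adjusted p under 0.05 was reached in 4 of them: no filter on low counts, no sex covariate, the DESeq2 Wald test and without KO replicate 3. The directions of Jchain, Ighm, Igkc, Mzb1, Derl3 and Fcgrt were also kept in all 18, and that of Igha in 17. Between genotypes 4 genes were called, against 50 with no filter, 346 by DESeq2, 2 by limma-voom, 57 at a threshold of 0.1 and 2 to 18 without single mice (2 without KO replicate 2, 4 or 5 or WT replicate 1, 18 without WT replicate 3). Between sexes 105 genes were called, against 197 with no filter, 436 by DESeq2, 351 at a threshold of 0.1, 41 with no genotype covariate and 0 to 195 without single mice. The 0 came without KO replicate 1, by edgeR, with 1919 genes at an unadjusted p under 0.05. Of the 21 pairs 4 passed, against 1 by Spearman, 3 after centring on the genotype means and 1 to 6 without single mice. The 1 came without WT replicate 1 or KO replicate 3. The cause was not tested. No paired analysis was possible because the replicate numbers follow accession order. Depth limits Tnfrsf17 most, at 2 to 7 counts.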

Other observations

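Ccl20, a chemokine gene of mucosal epithelium whose product attracts lymphocytes that carry Ccr6, was too low for the filter on low counts and was picked out after its values were seen. It measured 0.356 to 1.35 CPM in KO mice, from 9 to 29 counts, and 0.0434 to 0.362 CPM in WT mice, from 1 to 9 counts. The ranges overlapped at their ends, and some WT values lay under the floor of 3 counts. In the fit with no filter on low counts the log2 fold change was 2.02 (SE 0.42, edgeR adjusted p 0.0453), where 0.163% of 30722 genes were called. Fcer1a, the alpha chain of the IgE receptor of mast cells and basophils, was likewise low, with 2 to 6 counts in KO and 5 to 10 counts in WT mice. With no filter its difference was -1.05 on the log2 scale (SE 0.49; edgeR adjusted p 0.414).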
